A study of Mus musculus with 227 samples.

Results

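The ribosomal protein genes described here are the 84 rows of the expression table whose whole name fits the usual naming of cytosolic ribosomal proteins, Rpl or Rps with a number, or Rplp for the P stalk, with an optional suffix such as a, l or x. They were chosen by name alone, out of 24388 gene rows. The samples were single cells of BL6 mouse long bones taken on postnatal day 3. Surface antigens defined 4 sorted skeletal populations, and cells were captured on the Fluidigm C1 microfluidic system. There were 92 cells labelled 6C3+ (Thy-6C3+CD105+), 72 labelled THY+ (Thy+6C3-CD105+), 26 labelled CSP (Thy-6C3-CD105+) and 37 labelled mSSC, for mouse skeletal stem cell (Thy-6C3-CD105-CD200+). Cells in the 4 gates lacked CD45 and Ter119 and carried AlphaV integrin, and absence of Tie2 was named for THY+, CSP and mSSC but not for 6C3+. No animal or culture is named, so each population counts as 1 sample, and the differences below are descriptions of these cells with no test across animals.

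The cytosolic ribosome makes the proteins encoded by nuclear genes. Its large subunit (Rpl genes) joins amino acids and its small subunit (Rps genes) reads the mRNA, while the P stalk proteins Rplp0, Rplp1 and Rplp2 recruit and activate elongation factors. Mammalian ribosomal protein mRNAs carry a terminal oligopyrimidine tract, a run of C and T bases at the start of the mRNA, through which growth signals set their translation together, and their output relative to other mRNAs is commonly read as a sign of growth.

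Of the 84 members, 52 belong to the large subunit and 32 to the small subunit. In the GENCODE annotation 82 are protein coding. The other 2, Rps4l and Rpl32l, are listed as a transcribed processed pseudogene and a processed pseudogene, so the name pattern did not keep out every pseudogene. The members lie on 19 chromosomes, 14 of them on chromosome 7 and 4 on the X chromosome. Their coding length ran from 75 bases (Rpl41) to 1257 bases, with a median of 454.5.

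Values were deposited as FPKM, a fragment measure per transcript length and library total, and were rescaled here so that the endogenous FPKM of each cell, spike-ins left out, sum to 1000000 (ppm). Detection means FPKM of 1 or more. At least 1000 genes were detected in 34 of 92 6C3+ cells, 43 of 72 THY+ cells, 11 of 26 CSP cells and 37 of 37 mSSC cells, with population medians of 2534 to 3033 genes in those cells. The others held 4 to 978 genes. Spike-ins took a median of 18.9% of all FPKM in 6C3+ and 20.8% in THY+ cells with at least 1000 genes, against 0.000945% in CSP and 0.00117% in mSSC cells. CSP and mSSC cells share a set of index numbers, and the titles name no plate. Sort population and index set cannot be told apart for 6C3+ and for THY+. The haematopoietic marker list (6 genes) was undetected in 6C3+, THY+ and CSP cells, with Lyz2 and Cd79a detected in mSSC and a summed share of at most 0.0191%. The erythroid list summed to at most 0.0051% in any cell, the endothelial list to at most 0.0247% and the muscle list to at most 0.0991%. The skeletal list was detected in all 4 populations. Col2a1, the main cartilage collagen, had medians of 6639, 10.2, 32201 and 24996 ppm in 6C3+, THY+, CSP and mSSC cells with at least 1000 genes. Col1a1, the main bone collagen, had 10644, 6561, 0 and 5.52 ppm in the same populations.

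In cells with at least 1000 detected genes, ribosomal protein genes took 9.10% to 12.4% of endogenous FPKM by population median. The median share was 9.10% in 6C3+ cells (quartiles 8.13% to 10.8%, range 6.41% to 14.2%), 10.6% in THY+ cells (quartiles 8.05% to 12.5%, range 0.307% to 16.5%), 12.1% in CSP cells (quartiles 10.8% to 15.5%, range 3.34% to 21.9%) and 12.4% in mSSC cells (quartiles 10.5029% to 14.1%, range 5.02% to 22.2%). 6C3+ cells were lowest and mSSC cells highest by median, CSP and mSSC lay close together, and the ranges of the 4 populations overlapped. A median of 77 members was detected per 6C3+ cell, 78 per THY+ cell, 79 per CSP cell and 78 per mSSC cell.

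**Figure D1:**
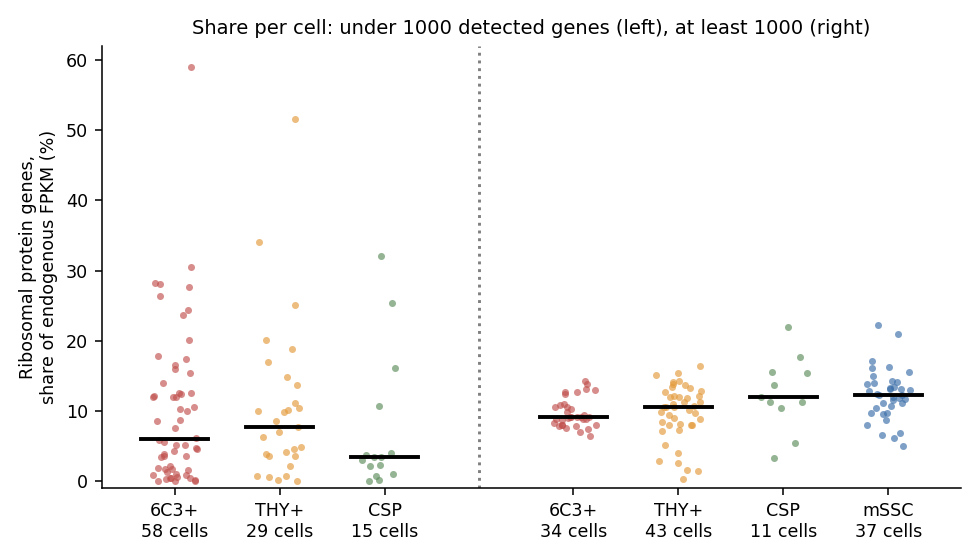
Share of endogenous FPKM (%) taken by the 84 ribosomal protein genes, 1 point per cell, by population, with cells under 1000 detected genes on the left and cells with at least 1000 on the right. Black lines are medians: 6.02%, 7.67% and 3.41% for 6C3+, THY+ and CSP on the left, and 9.10%, 10.6%, 12.1% and 12.4% for 6C3+, THY+, CSP and mSSC on the right. Points on the left spread from 0 to 58.97%.

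Within cells with at least 1000 genes, the share followed the number of detected genes weakly. Spearman's rho was -0.13 in 34 6C3+ cells, 0.16 in 43 THY+ cells, 0.04 in 11 CSP cells and -0.24 in 37 mSSC cells. The cells of a population share a sort gate and an index set. By band of gene number the median share in 6C3+ cells was 8.89% in 3 cells with 1000 to 2000 genes, 9.28% in 20 cells with 2000 to 3000 and 9.11% in 11 cells with more. In mSSC cells the same bands gave 13.7% in 4 cells, 12.3% in 24 cells and 9.79% in 9 cells. The 6C3+ median was under the mSSC median in each band, with overlapping ranges.

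THY+ cells held a low tail, with 6 cells under 5% of FPKM, against 1 CSP cell and no 6C3+ or mSSC cell. The 7 THY+ cells with 1000 to 2000 genes had a median share of 2.64% and a median of 28 detected members, against 12.1% and 76.5 members in the 16 cells with 2000 to 3000 genes. The 6 lowest THY+ cells had 0.307% to 4.06% of FPKM in ribosomal protein genes, 14 to 29 members detected, 1202 to 1994 genes and 59.97% to 87.7% of FPKM in spike-ins. The next THY+ cell had 5.20%, 76 members and 3356 genes. Across the 43 THY+ cells the share ran against the spike-in share (rho -0.55) and with total endogenous FPKM (rho 0.51), while the same 2 values were -0.01 and 0.14 in 34 6C3+ cells, 0.58 and 0.03 in 11 CSP cells and -0.28 and 0.05 in 37 mSSC cells. The 9 THY+ cells with index S502 had 1.06% spike-ins and a share of 13.8% by median. The 4 6C3+ cells with index S502 had 0.893% spike-ins and a share of 9.28%, and the 2 with S503 had 0.807% and 8.46%. The part of spike-in share and total FPKM in these shares was not tested. In CSP and mSSC cells that carried the same S index, the CSP median was higher for 3 of 6 indices. Those were S516, S520 and S521, with 3, 2 and 3 CSP cells of at least 1000 genes. S513, S517 and S522, where it was not higher, held 1 such CSP cell each.

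**Figure D2:**
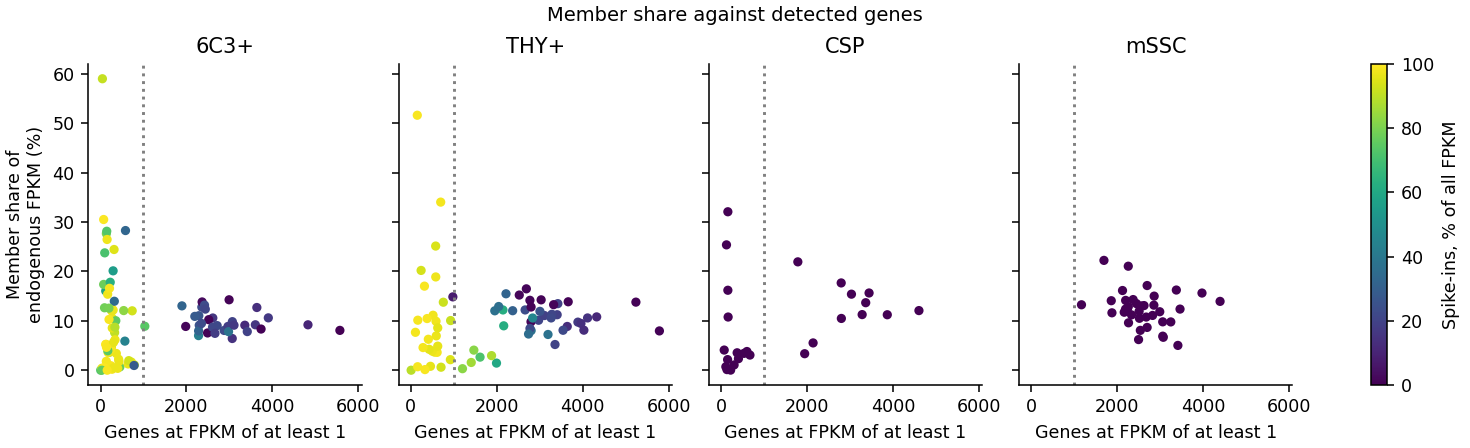
Share of endogenous FPKM in ribosomal protein genes (y axis, %) against genes at FPKM of at least 1 (x axis), 1 panel per population and 1 point per cell, coloured by the share of spike-ins in all FPKM. The dotted line marks 1000 genes. Beyond it the shares spread less than before it, and the lowest include 6 THY+ cells at 0.307% to 4.06% with 1202 to 1994 genes and a CSP cell at 3.34% with 1944 genes.

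In cells under 1000 genes the share spread widely. The median share was 6.02% in 58 6C3+ cells (range 0 to 58.97%), 7.67% in 29 THY+ cells (range 0 to 51.6%) and 3.41% in 15 CSP cells (range 0.0190% to 32.1%), against 9.10%, 10.6% and 12.1% in the 6C3+, THY+ and CSP cells with at least 1000 genes. The mean share differed less, at 9.99% under 1000 genes against 9.74% at or above it in 6C3+, 10.54% against 9.82% in THY+, and 7.24% against 12.6% in CSP. A median of 7 members was detected in 6C3+, 10 in THY+ and 9 in CSP cells under 1000 genes, and 3 6C3+ cells and 1 THY+ cell had none. Members made up 3.02%, 2.07% and 4.03% of the genes detected in such 6C3+, THY+ and CSP cells, against 2.80%, 2.44% and 2.41% in the 6C3+, THY+ and CSP cells with at least 1000 genes. Under 1000 genes, small nucleolar, micro and other small RNA rows took 6.45%, 6.81% and 7.85% of endogenous FPKM in 6C3+, THY+ and CSP. In the fuller cells of the 3 populations they took 0.240%, 0.266% and 0.287%. With these rows left out of the total, the median share under 1000 genes was 7.19%, 7.99% and 3.90% in 6C3+, THY+ and CSP. In the fuller cells it was then 9.18%, 10.6% and 12.1%.

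As mean log2(ppm + 1), 81 of 84 members were at least 2-fold lower in cells under 1000 genes than in fuller cells of the same population, in each of 6C3+, THY+ and CSP, and 0 were at least 2-fold higher. Over all genes tested, the shares at least 2-fold lower were 42.1%, 36.9% and 54.7% in 6C3+, THY+ and CSP, and the shares higher 0.106%, 0.306% and 0.521%. No such share was taken among genes at 100 ppm or more. The cells were split by number of detected genes, so a lower mean is partly built in for genes that most fuller cells hold. Of the 84 members, 71 were detected in at least 90% of the fuller cells. The median member difference was -7.67, -6.49 and -7.98 in 6C3+, THY+ and CSP, while genes with a mean of at least 100 ppm in either set of cells had medians of -3.24, -2.60 and -4.33. These differences count cells in which a member is listed at 0, and with the log2 of the mean they were -0.34, -0.70 and -3.43.

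In gene-poor cells no member was detected in as many as 50% of the cells. Over the cells under 1000 genes of 6C3+, THY+ and CSP, a member was detected in a median of 12.7% of cells. Rpl23 and Rpl41, both of the large subunit, were detected most often, each in 35 cells (34.3%, exact Clopper-Pearson 95% interval 25.2% to 44.4%). Rps19, a gene mutated in Diamond-Blackfan anaemia in humans, was detected in 27 cells. Rps4l, Rpl10l, Rpl39l and Rpl3l were detected in 0 of these cells, with an interval up to 3.55%. The intervals cover counting error between cells. Across the 84 members, detection in gene-poor cells followed the level in fuller cells (rho 0.70) and not transcript length (rho 0.01), as a description over genes of the same cells. Rpl23 ranked below 40 other members by level and was detected in every fuller cell.

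**Figure D3:**
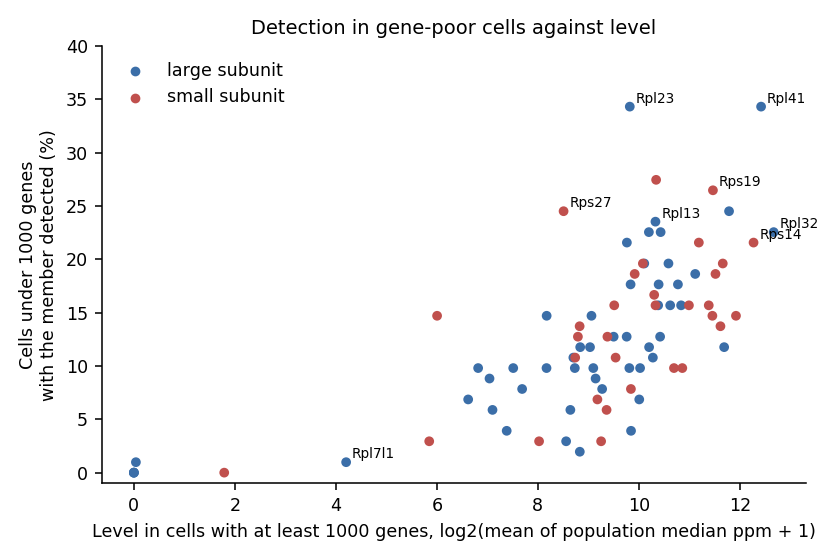
Percent of the cells under 1000 genes, 3 populations pooled, in which a member was detected (y axis) against its level in cells with at least 1000 genes, as log2 of the mean of the 4 population medians in ppm plus 1 (x axis). Each point is a member, blue for the large and red for the small subunit. Rpl23 and Rpl41 lie highest, at 34.3%, and members near 0 on the x axis were almost never detected.

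In cells with at least 1000 genes the members covered a wide range of levels in a nearly fixed order. Rpl32 was the most abundant by mean of the 4 population medians. It had lowest, median and highest values of 1453, 5381 and 11828 ppm in 6C3+, 0, 5899 and 17492 ppm in THY+, 0, 6975 and 14497 ppm in CSP, and 361, 7803 and 25402 ppm in mSSC cells. Its medians were ordered as the total share, and the populations overlapped over most of their range. Rpl41, the shortest ribosomal protein, followed with medians of 4593, 5146, 6005 and 6179 ppm in 6C3+, THY+, CSP and mSSC. Other abundant members included Rps14, Rpl4, Rpl7 and Rps3a1, and the 10 most abundant members together took a median of 38.78%, 36.98%, 37.09% and 38.03% of the member total in 6C3+, THY+, CSP and mSSC cells. Member medians ranked alike in any pair of populations (rho 0.94 to 0.97 over 84 genes, values from the same 4 sets of cells), and 15 of the 20 most abundant members were common to all 4 populations. Level did not follow transcript length across members (rho -0.07).

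Detection was near complete for most members. Of the 84, 71 were detected in at least 90% of the cells with at least 1000 genes, 7 in 50% to 90% (Rpl22, Rpl29, Rpl32l, Rpl34, Rpl36a, Rpl7l1 and Rps27l) and 6 in under 50% (Rpl10l, Rpl26, Rpl30, Rpl39l, Rpl3l and Rps4l). Rpl26 and Rpl30 encode core proteins of the large subunit, and their low values came with a near-identical second row in the table, described below.

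The balance of subunits was close in the 4 populations by median. The summed small subunit FPKM over the large was 0.95 in 6C3+, 0.86 in THY+, 0.85 in CSP and 0.86 in mSSC cells by median, with cell ranges of 0.65 to 1.39 in 6C3+, 0.07 to 2.30 in THY+, 0.59 to 1.19 in CSP and 0.64 to 1.25 in mSSC. The 3 P stalk genes took a median of 4.78%, 4.21%, 5.08% and 4.61% of the member total in 6C3+, THY+, CSP and mSSC. Within the stalk, Rplp0 had medians of 2008, 1638, 2803 and 2424 ppm and Rplp2 of 1228, 1261, 2240 and 2270 ppm in 6C3+, THY+, CSP and mSSC. Rplp1 had 1067 and 946 ppm in 6C3+ and THY+, 2242 ppm in CSP and 1113 ppm in mSSC. The Rplp1 cells ranged from 359 to 3857 ppm in CSP and from 43.6 to 4137 ppm in mSSC, and CSP minus mSSC was 0.85 for Rplp1, 0.06 for Rplp2 and -0.79 for Rplp0 (0.19 with at least 2000 genes).

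Differences between populations are given as the difference of mean log2(ppm + 1) over cells with at least 1000 genes, first population minus second. A 2-fold difference is 1 on that scale. The background is the share of all genes with a mean of at least 1 ppm in either population that passed the same fold. Of the members, 82 of 84 passed that filter, and Rpl10l and Rpl3l, listed at 0 in all these cells, did not. The comparisons with mSSC share the mSSC cells and are not independent of each other. Means over cells weigh cells in which a gene is listed at 0. For each member the difference was therefore also taken from medians, from cells with at least 2000 genes, and from cells with spike-ins under 50% of FPKM. Genes and lists outside the members, and sums of near-identical rows per member, have the means alone. The background covers only the means over cells with at least 1000 genes. No share of all genes was taken for the other ways, or for passing the fold in all of them. Counts of members past 2-fold in all ways thus have no background in any comparison.

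In 6C3+ minus mSSC most members were slightly lower, with a median of -0.52, against 0.17 over 11891 genes tested and 0.13 over 1914 genes with a mean of at least 100 ppm. Of 84 members, 10 were at least 2-fold lower, where the background was 4.53% of genes tested and 17.5% of the genes at 100 ppm or more. 2 were at least 2-fold higher, where the background was 10.9% and 25.8%. The median was -0.42 with cells of at least 2000 genes. Under all 4 ways of computing the difference, 8 members were at least 2-fold lower: Rpl18, Rpl26, Rpl29, Rpl32l, Rpl36, Rps18, Rps2 and Rps7. The share of all genes at least 2-fold lower in all 4 ways was not taken. With its near-identical row summed, as described below, Rpl26 was at -0.36. With FPKM as deposited, not rescaled within each cell, the median was -2.04 and 77 members were lower, and fuller 6C3+ cells had a median endogenous total of 366748 FPKM, against 906237 in mSSC.

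Rpl36, a large subunit protein, had the lowest difference. Its lowest, median and highest values were 0, 467 and 1811 ppm in 6C3+, against 129.8, 1507 and 3721 ppm in mSSC cells. The 6C3+ cells lay toward the low end of the mSSC range and the cells overlapped, with a difference of -2.31 (-2.16 with at least 2000 genes). Rps18, a protein of the small subunit head, had 0, 1936 and 9417 ppm in 6C3+ and 1103, 3909 and 9971 ppm in mSSC, a difference of -1.64. Rps2, near the mRNA entry side of the small subunit, had medians of 308 ppm in 6C3+ and 695 ppm in mSSC and a difference of -1.74. Rpl29, which is dispensable in mice but whose loss reduces body size, had medians of 193 and 504.02 ppm in 6C3+ and mSSC and a difference of -2.19. Rpl18 had medians of 316 ppm in 6C3+ and 912 ppm in mSSC, a difference of -1.71. Rpl32l, at 61.3 ppm in 6C3+ and 174.04 ppm in mSSC, shares 96.0% of its bases with the coding sequence of Rpl32, whose own difference was -0.49. Rps7 differed by -1.06, and was detected in all 34 6C3+ and all 37 mSSC cells.

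The 2 members at least 2-fold higher in 6C3+ were Rps27 (1.52) and its paralog Rps27l (1.31). The next highest were Rpl30 (0.63), Rps4x (0.51), the X-linked gene of the small subunit protein S4, and Rpl7 (0.13), whose difference of medians was -0.32.

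In THY+ minus mSSC the mean-based differences were larger and changed with the cells used. The median member difference was -1.25, against 0.16 over 12240 genes tested and -0.04 over 2082 genes at 100 ppm or more. 61 of 84 members were at least 2-fold lower, against a background of 6.13% (25.8% at 100 ppm or more), and 0 were at least 2-fold higher, against 9.65% (22.3%). With cells of at least 2000 genes the median was -0.29 and 7 members were at least 2-fold lower, with spike-ins under 50% of FPKM it was -0.21 and 5 were lower, and with medians over cells it was -0.34 and 10 were lower. With the 20 THY+ and 27 mSSC cells of 1500 to 3000 genes the median was -1.57 and 61 were lower, with no background taken. The part of the low tail in these differences was not tested. Rps18, Rpl29, Rps2 and Rpl18 were at least 2-fold lower in all 4 ways. Rps18 had 0, 927 and 5072 ppm in THY+ cells as lowest, median and highest values, against 1103, 3909 and 9971 ppm in mSSC, and differed by -2.59 (-1.72 with at least 2000 genes). The THY+ median lay below the lowest mSSC cell. Rpl29 had medians of 99.2 ppm in THY+ and 504.02 ppm in mSSC and differed by -2.52. Rps2 had medians of 234.3 ppm in THY+ and 695 ppm in mSSC, a difference of -2.49, and Rpl18 had 326 ppm in THY+ and 912 ppm in mSSC, a difference of -2.24. Rpl14 (-2.43) and Rpl34 (-2.34) were among the lowest by means, but not at least 2-fold lower in all 4 ways. At the other end lay Rpl30 (0.92), Rps27l (0.36), Rps4l (0.32), Rps4x (0.22) and Rps24 (0.03). With cells of at least 2000 genes Rps27l was at 1.23 and Rps4x at 1.10.

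**Figure D4:**
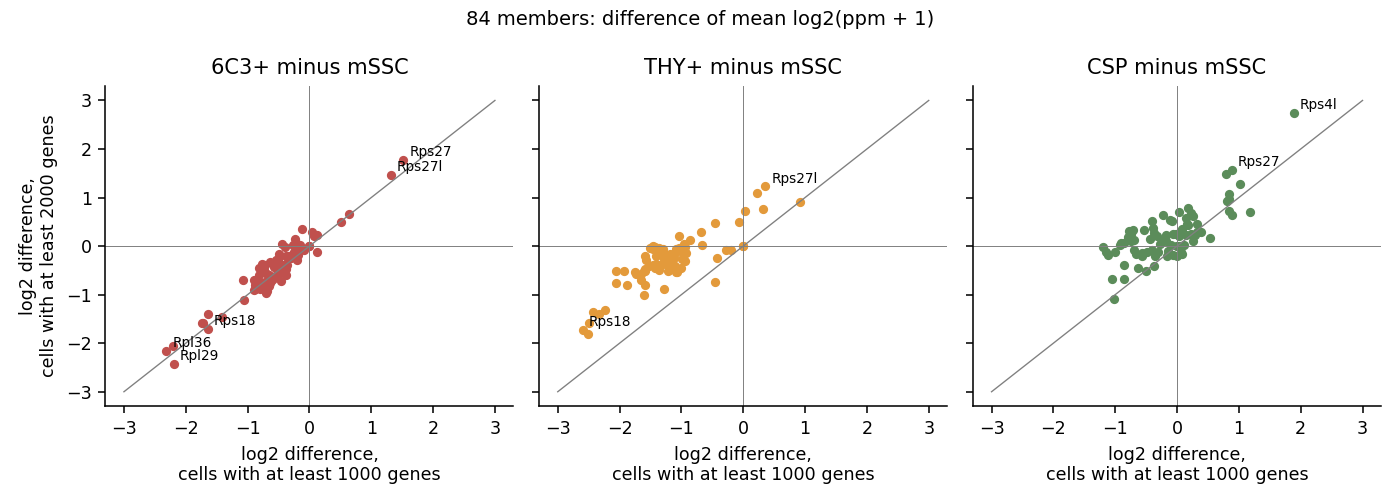
Difference from mSSC in mean log2(ppm + 1) for the 84 members in cells with at least 1000 genes (x axis) and at least 2000 genes (y axis), for 6C3+, THY+ and CSP from left to right, with the line of equality. In 6C3+ the points lie along the line. In THY+ most lie above it, the median being -1.25 on the x axis and -0.29 on the y axis.

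CSP minus mSSC is the comparison within a shared set of index numbers. The median member difference was -0.13, against 0.05 over 10982 genes tested and 0.53 over 1902 genes at 100 ppm or more. It was 0.17 with the 9 CSP and 33 mSSC cells with at least 2000 genes. With the 5 CSP and 27 mSSC cells of 1500 to 3000 genes it was -0.89, and 39 members were at least 2-fold lower. The share of all genes past that fold was not taken in those cells. 3 of 84 members were at least 2-fold higher, against a background of 16.1% (37.6% at 100 ppm or more), and 6 were at least 2-fold lower, against 6.36% (15.1%). The 6 were Rps14 (-1.20), Rpl32 (-1.15), Rps27a (-1.12), Rpl32l (-1.05), Rpl39 (-1.02) and Rpl14 (-1.01), and by medians none of the 84 was at least 2-fold lower. Rps14 and Rpl32 were each listed at 0 in 1 of 11 CSP cells. The 3 higher members were Rps4l (1.89), Rpl22l1 (1.18) and Rpl30 (1.02). Rpl22l1, a paralog of Rpl22 that can take its place in the large subunit, had 337, 1391 and 2804 ppm in CSP as lowest, median and highest values and 0, 762 and 3812 ppm in mSSC. The CSP cells lay inside the mSSC range, and with at least 2000 genes the difference was 0.71. Detection of Rps4l was in 6 of 11 cells in CSP and 10 of 37 in mSSC, and it was at least 2-fold higher in all 4 ways. Next came Rpl27 (0.89) and Rps27 (0.88).

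Against CSP, 6C3+ cells had a median member difference of -0.38, against 0.16 over 11390 genes tested and -0.36 over 2028 genes at 100 ppm or more. It was -1.29 with FPKM as deposited, and 0.28 with the 22 6C3+ and 5 CSP cells of 1500 to 3000 genes. 13 of 84 members were at least 2-fold lower, against a background of 13.7% (35.7%), and 0 were at least 2-fold higher, against 12.7% (21.7%). Rpl36 (-2.63), Rpl29 (-2.34), Rps4l (-2.04), Rpl26 (-1.96) and Rpl27 (-1.66) were the lowest, and Rpl36, Rpl29, Rps4l, Rpl26, Rps18 and Rpl7l1 stayed past 2-fold in all 4 ways. None of these ways sums near-identical rows. With its near-identical row summed, as described below, Rpl26 was at -0.26. Rpl36 had 0, 467 and 1811 ppm in 6C3+ and 311, 2045 and 3683 ppm in CSP cells. The 6C3+ upper quartile, 711.99 ppm, was under the CSP lower quartile of 945 ppm. The highest were Rps9 (0.88), Rps27a (0.85), Rps14 (0.84), Rpl9 (0.72) and Rpl32 (0.66) by means, and by medians these 5 lay between -0.37 and -0.07.

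THY+ minus CSP gave a median of -0.98, against 0.15 over 11832 genes tested and -0.61 over 2182 genes at 100 ppm or more. With all cells, including those under 1000 genes, it was 0.80, with 33 members at least 2-fold higher and 1 lower. 41 of 84 members were at least 2-fold lower, against a background of 15.2% (41.9%), and 0 were at least 2-fold higher, against 12.1% (20.1%). With at least 2000 genes the median was -0.43 and 17 were lower, and with spike-ins under 50% of FPKM it was -0.03 and 10 were lower. Rpl29 (-2.66), Rpl22l1 (-2.44), Rps18 (-2.29) and Rpl36 (-2.20) were among the lowest, and Rpl29, Rps18 and Rpl36 stayed past 2-fold in all 4 ways, while Rpl22l1 was at -0.84 by medians and -1.01 with at least 2000 genes. Rps20 (0.47) and Rpl32 (0.22) were highest by means. By medians and with at least 2000 genes Rps20 was at 0.16 and 0.07, and Rpl32 at -0.24 and -0.02. Rps18 had 0, 927 and 5072 ppm in THY+ and 418, 3916 and 14844 ppm in CSP.

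The median of 6C3+ minus THY+ changed sign with the cells used. The median member difference was 0.63, against 0.007 over 12272 genes tested and 0.33 over 2078 genes at 100 ppm or more. 20 of 84 members were at least 2-fold higher, against a background of 6.25% (22.2%), and 0 were at least 2-fold lower, against 3.9% (10.8%). With all cells the median was -1.44, with 68 members at least 2-fold lower. With FPKM as deposited it was -0.53, with at least 2000 genes -0.18, with spike-ins under 50% of FPKM -0.31 and by medians -0.04, and 1, 1, 1 and 3 members were at least 2-fold higher. Rps27 (2.70) alone was at least 2-fold higher in all 4 ways. Rps14 (1.70), Rpl14 (1.70) and Rps9 (1.69) followed by means, and were at 0.12, 0.59 and 0.51 with cells of at least 2000 genes. The lowest were Rpl32l (-0.93), Rps4l (-0.47), Rpl36 (-0.43), Rpl30 (-0.29) and Rps20 (-0.25). Rpl36 had medians of 467 ppm in 6C3+ and 691 ppm in THY+, and its difference was -1.35 with at least 2000 genes.

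The Rps27 difference changed when the row of its identical copy was added. Rps27 encodes a zinc finger protein of the small subunit and lies at chr3:90212522-90213651, minus strand (GRCm38, the build also called mm10). Rps27rt is a separate row at chr9:114982366-114982739, minus strand, annotated as protein coding. Its coding sequence matches that of Rps27 in all 252 bases without the stop codon, while the paralog Rps27l at chr9:66946086-66949516, plus strand, differs at 60 bases and is 76.2% identical. The coding sequences are shown because reads within identical stretches cannot be told apart. They were read from GENCODE M21 transcripts, and capitals mark bases that differ from Rps27, of which Rps27rt has none.
Rps27: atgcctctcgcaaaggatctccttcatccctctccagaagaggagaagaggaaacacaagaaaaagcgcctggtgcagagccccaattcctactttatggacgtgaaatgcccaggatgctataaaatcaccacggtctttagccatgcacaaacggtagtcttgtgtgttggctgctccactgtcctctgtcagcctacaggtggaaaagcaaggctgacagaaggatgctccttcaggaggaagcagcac
Rps27rt: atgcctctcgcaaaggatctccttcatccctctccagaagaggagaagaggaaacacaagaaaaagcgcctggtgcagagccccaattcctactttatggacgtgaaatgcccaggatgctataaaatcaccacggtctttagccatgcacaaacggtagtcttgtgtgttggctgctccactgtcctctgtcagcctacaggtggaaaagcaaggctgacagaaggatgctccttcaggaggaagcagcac
Rps27l: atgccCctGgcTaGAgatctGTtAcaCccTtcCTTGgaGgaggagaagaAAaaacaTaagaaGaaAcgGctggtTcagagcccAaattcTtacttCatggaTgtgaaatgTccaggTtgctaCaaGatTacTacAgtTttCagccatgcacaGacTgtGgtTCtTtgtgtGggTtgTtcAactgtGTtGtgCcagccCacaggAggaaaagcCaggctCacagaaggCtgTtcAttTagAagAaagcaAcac

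Rps27 had lowest, median and highest values of 1.57, 743 and 3108 ppm in 6C3+, 0, 99.1 and 7993 ppm in THY+, 18.2, 374 and 2437 ppm in CSP, and 1.83, 237.4 and 2586 ppm in mSSC cells. Rps27rt had medians of 1619, 2510, 1549 and 2479 ppm in 6C3+, THY+, CSP and mSSC, so the copy row held most of the signal in each population. Rps27 took a median of 31.5% of the sum of both rows in 6C3+, against 6.53% in THY+, 9.68% in CSP and 7.25% in mSSC. The sum had medians of 2277, 2744, 2263 and 2859 ppm. With the sum, 6C3+ minus mSSC became -0.24 in place of 1.52, and 6C3+ minus THY+ became 0.85 in place of 2.70. Across cells the 2 rows ran against each other in 6C3+ (rho -0.43) and mSSC (rho -0.54), and not in THY+ (0.06) or CSP (-0.15). Per-row values of Rps27 are uncertain for that reason. This check of copies was made after the values were seen.

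Rps27l has no near-identical row among those searched. It had 0, 519 and 1923 ppm in 6C3+, 0, 167.4 and 3730 ppm in THY+, 0, 209.1 and 1804 ppm in CSP, and 0, 142.003 and 1407 ppm in mSSC cells. It was detected in 28 of 34 6C3+, 33 of 43 THY+ and 9 of 11 CSP cells, and in 29 of 37 in mSSC. The 6C3+ median was the highest of the 4, the ranges overlapped from 0 up, and 6C3+ minus mSSC was 1.31 by means, 1.86 by medians and 1.47 with at least 2000 genes. The gene is known in human cells as a p53 target.

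**Figure D5:**
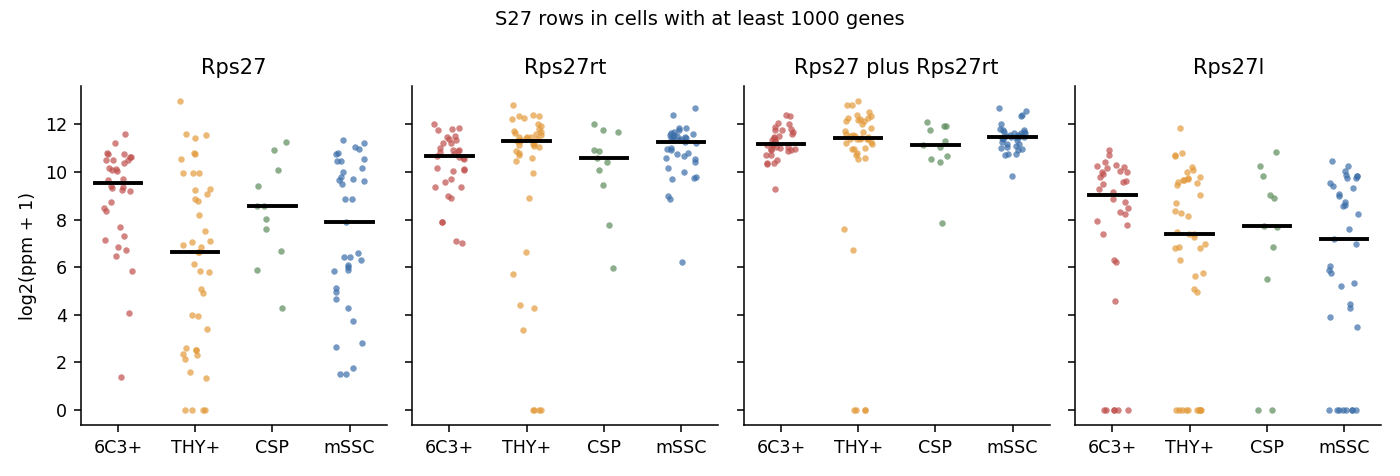
Level of Rps27, Rps27rt, their sum and Rps27l, as log2(ppm + 1) (y axis), in cells with at least 1000 genes, by population, with medians as black lines. The Rps27 medians spread from 99.1 ppm in THY+ to 743 ppm in 6C3+, those of the sum from 2263 ppm in CSP to 2859 ppm in mSSC. Rps27l is highest in 6C3+, at 519 ppm.

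Rpl26 and Rpl30 also had most of their signal in a near-identical row. Their coding sequences match the processed pseudogene rows Gm15772, at chr5:3236431-3236868, and Gm12191, at chr11:49678710-49679057, in all but 2 of 435 bases and 1 of 345 bases. A stretch of 60 bases from each is shown, with the differing base in capitals. The Rpl26 gene lies at chr11:68901583-68906989 and the Rpl30 gene at chr15:34440505-34443640. The Rpl26 pair is on plus strands and the Rpl30 pair on minus strands.
Rpl26: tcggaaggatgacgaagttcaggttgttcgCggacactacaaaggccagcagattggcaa
Gm15772: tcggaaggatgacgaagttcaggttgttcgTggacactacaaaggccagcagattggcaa
Rpl30: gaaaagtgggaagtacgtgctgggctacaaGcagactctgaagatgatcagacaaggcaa
Gm12191: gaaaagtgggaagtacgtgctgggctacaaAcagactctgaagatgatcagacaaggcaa

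Rpl26 had medians of 0.59 ppm in 6C3+, 0.38 ppm in THY+, 425 ppm in CSP and 237.8 ppm in mSSC, while Gm15772 had 1782, 2589, 1851 and 2629 ppm. The cells were split, as Rpl26 was detected in 10 of 34, 15 of 43, 6 of 11 and 20 of 37 cells. Summed, the rows had 2258, 2603, 2299 and 2861 ppm. With the sum, 6C3+ minus mSSC was -0.36 in place of -1.63, and 6C3+ minus CSP was -0.26 in place of -1.96. Rpl30 had medians under 0.07 ppm in all 4 populations, while Gm12191 had 260.99, 230, 592 and 503.05 ppm. With the sum its 6C3+ minus mSSC difference was -0.95 in place of 0.63 and its THY+ minus mSSC difference -1.06 in place of 0.92. In all, 18 members had at least 1 row outside the members with at least 90% identity over at least 80% of the coding sequence, the match covering at least 20% of that row's transcript. Summing moved 3 of the 18 by over 0.5 in 6C3+ minus mSSC (Rpl26, Rpl30 and Rps27) and 3 in THY+ minus mSSC (Rpl26, Rpl30 and Rpl34). Rps2 and Rpl29 have such rows too, and their 6C3+ minus mSSC differences were -1.74 and -1.90 after summing. Rpl36, Rps18, Rpl18, Rps7 and Rps27l had none among the rows searched. The search covered the 23454 of 24388 gene rows with a GENCODE M21 name. Copies in the remaining rows or outside the table were not searched.

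Paralog pairs were far apart in level, on the per-length ppm scale. Rpl22l1 was above Rpl22 in each population, at 747, 774, 1391 and 762 ppm in 6C3+, THY+, CSP and mSSC against 79.9, 91.04, 120 and 98.2 ppm for Rpl22. Rpl7l1 had 4.19, 2.55, 59.7 and 3.29 ppm against 3031, 2901, 3491 and 3783 ppm for Rpl7. Rpl39 had medians of 1169, 1385, 1336 and 1589 ppm in 6C3+, THY+, CSP and mSSC, while Rpl39l was detected in 7 fuller cells. Rpl10l and Rpl3l, known from testis and from heart and skeletal muscle, were detected in no fuller cell, while Rpl10 had 880, 859, 873 and 859 ppm and Rpl3 797, 931, 1268 and 1412 ppm. Rpl10 medians were nearly equal across the 4 populations. Rps4l had a median of 9.82 ppm in CSP and 0 in the others, against 2068, 2457, 1969 and 1646 ppm of Rps4x in 6C3+, THY+, CSP and mSSC.

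Most members ran with the share of the other members from cell to cell. For each member, the rho between its ppm and the share of all other members was taken within a population. Its median over members was 0.31 in 6C3+, 0.48 in THY+, 0.62 in CSP and 0.43 in mSSC. The rho was positive in all 4 populations for 75 of the 82 members with a value. The share of other genes positive in all 4 was not taken, so this count has no background. Rps19 had the highest lowest-of-4 value, 0.58, followed by Rpl35 (0.55), Rplp2 (0.54) and Rpl13a (0.52). Among the values under 0 were those of Rpl26 (-0.65), whose row is one of a near-identical pair, Rps4l (-0.14), Rps15 (-0.08), Rpl28 (-0.04) and Rps27l (-0.01). The cells share library and depth, and ppm values of 1 cell sum to a constant.

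A pyrimidine run near the start of these genes is a feature the naming did not use. RefSeq start windows (GRCm38.p6) were at hand for 63 of the 84 members. In the 30 bases around the annotated start, 15 on each side, 28 of the 63 (44.4%) held at least 8 C or T bases in a row on the sense strand, in any order. The same held for 13.8% of 26962 other genes and for 14.8% of 1128 other genes with a mean of at least 100 ppm, a gene with several starts counting when any of them did. For members and other genes alike, a run counted anywhere in the window, also wholly before the annotated start. The windows of a member lower in 6C3+ and THY+ (Rps18), one higher in CSP (Rpl22l1), one higher in 6C3+ (Rps27l, 1 of its 2 windows) and one lower without such a run (Rps2) are shown, with runs in capitals. The windows lie at chr17:33955651-33955680, minus strand, chr3:28805493-28805522, chr9:66946071-66946100 and chr17:24720048-24720077, all plus strand. In the Rps27l window the run lies wholly before the annotated start, so outside the mRNA from that start.
Rps18: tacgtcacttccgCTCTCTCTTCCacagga
Rpl22l1: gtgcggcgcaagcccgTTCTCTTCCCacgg
Rps27l: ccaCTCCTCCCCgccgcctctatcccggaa
Rps2: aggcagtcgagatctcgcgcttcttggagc

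Genes outside the members were ranked by how they ran with the member share. Among 908 other genes detected in at least 50% of cells of each population, the 10 with the highest lowest-of-4 rho to the share were Gm15772 (0.39), Rps15a-ps6 (0.39), Rpl14-ps1 (0.38), Rps15a-ps4 (0.36), Rpl37rt (0.36), Rps19-ps3 (0.34), Gm6548 (0.31), C330021F23Rik (0.30), Eef1a1 (0.30), the elongation factor that brings tRNA to the ribosome, and Rps27rt (0.29). 7 of these 10 are near-identical to a member's coding sequence.

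Other genes of the translation machinery were taken as lists. For 6C3+, THY+ and CSP minus mSSC, the background was 4.53%, 6.13% and 6.36% of genes tested at least 2-fold lower and 10.9%, 9.65% and 16.1% higher, and 17.5%, 25.8% and 15.1% lower and 25.8%, 22.3% and 37.6% higher among genes at 100 ppm or more. The elongation factor and other oligopyrimidine list (17 genes) had median differences of -0.79, -0.83 and 0.17 in 6C3+, THY+ and CSP minus mSSC, with 7, 8 and 2 genes at least 2-fold lower and 1, 1 and 3 higher. Eef1b2, an exchange factor for eEF1A, had medians of 160, 244.7, 561 and 430 ppm in 6C3+, THY+, CSP and mSSC. Eef1g, a partner of it, had 297, 167.6, 625 and 501 ppm. Their differences from mSSC were -1.72 and -1.68 in 6C3+, -1.61 and -2.62 in THY+, and 0.55 and 0.29 in CSP. Eef1d, of the same list, was higher in THY+ than in mSSC. Its medians were 6.70, 51.8, 268 and 18.7 ppm in 6C3+, THY+, CSP and mSSC. Its differences from mSSC were -0.84 in 6C3+, 1.14 in THY+ and 2.34 in CSP. The 4 ribosomal proteins outside the pattern had medians of -0.19, -0.77 and 0.18, with 0, 1 and 1 lower and 0, 0 and 1 higher. The 24 ribosome biogenesis genes had medians of 0.23, 0.01 and 0.42, with 3, 4 and 1 genes lower and 0, 1 and 2 higher. The 77 mitochondrial ribosomal protein genes had medians of 0.32, 0.13 and 0.60, with 6, 8 and 3 lower and 13, 8 and 24 higher. Myc, a transcription factor that drives ribosome synthesis, differed from mSSC by -2.66 in 6C3+ and -2.99 in THY+. It was detected in 13 of 34 6C3+, 18 of 43 THY+, 8 of 11 CSP and 28 of 37 mSSC cells, with medians of 0, 0, 40.1 and 75.9 ppm. The 13 growth regulators as a list had medians of 0.26, 0.36 and -0.03 in 6C3+, THY+ and CSP minus mSSC, with 1, 1 and 0 genes at least 2-fold lower and 4, 1 and 1 higher. The 6 housekeeping genes had medians of -0.24, -0.26 and 0.01 in the same order, with 1, 2 and 0 lower and 1, 1 and 0 higher.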

How the data were processed

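Single cells were captured on the Fluidigm C1 system and their cDNA was made by SMARTer chemistry with ERCC spike-ins added and libraries by Nextera XT, per the labels' protocols. The authors deposited 1 table of FPKM per gene and cell. The submitters' processing notes name mm10 and SAMtools; the aligner, the quantifier and the placing of reads shared by near-identical rows were not given in the sources used here. Read depth per cell is unknown, so no counting interval is given for a level. From the deposited FPKM, spike-in rows (92) were set apart and the 24388 gene rows of each cell rescaled to 1000000 (ppm). Cells were split at 1000 genes with FPKM of at least 1. No doublet step was run. Differences are between means of log2(ppm + 1) over cells, which understates changes of low genes. Cells are not replicates and no animal is named, so no test was run, and each population is 1 sample. Detection intervals are exact Clopper-Pearson 95% intervals over cells.

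Members with differences named are the 5 highest and 5 lowest of a comparison, the 10 most abundant members, paralogs and the P stalk, with others named after their values were seen. Some members that this rule names are not reported here. The members and lists were chosen with earlier results of these data known. Near-identical rows were found with BLAST 2.17.0 against GENCODE M21 transcripts. Scripts used matplotlib 3.10.9, scipy 1.17.1, pandas 2.3.3, numpy 2.4.6 and Python 3.11.15. The difference step was run on simulated data, with both groups drawn from cells of the same population. That simulation does not cover populations that differ in detected genes or spike-in share.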

Additional observations from a re-analysis of the deposited data

How the results depend on the processing

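Under the alternatives, 93 values moved by more than the spread between members or cells or, for counts, by over 1.5 times, and 85 of 96 median differences kept their sign. The 93 follow as the median member difference, then members at least 2-fold higher or lower, and where no value shows the cause, the cause was not tested. With FPKM as deposited, 6C3+ minus mSSC was -2.04 with 0 higher and 77 lower, CSP minus mSSC had 1 higher and 24 lower, 6C3+ minus CSP was -1.29 with 59 lower, THY+ minus CSP had 27 lower, and 6C3+ minus THY+ was -0.53 with 1 higher and 11 lower. With all cells, 6C3+ minus mSSC was -5.50 with 0 higher and 80 lower, THY+ minus mSSC -3.99, CSP minus mSSC -4.86 with 0 higher and 79 lower, THY+ minus CSP 0.80 with 33 higher and 1 lower, and 6C3+ minus THY+ -1.44 with 0 higher and 68 lower. With cells of 1500 to 3000 genes, 6C3+ minus mSSC had 16 lower, CSP minus mSSC was -0.89 with 39 lower, 6C3+ minus CSP had 23 higher and 8 lower, THY+ minus CSP 5 higher and 27 lower, and 6C3+ minus THY+ 35 higher and 2 lower. With cells of at least 2000 genes, THY+ minus mSSC was -0.29 with 2 higher and 7 lower, CSP minus mSSC had 5 higher and 1 lower, 6C3+ minus CSP 21 lower, THY+ minus CSP 1 higher and 17 lower, and 6C3+ minus THY+ was -0.18 with 1 higher and 2 lower. With the log2 of the mean, 6C3+ minus mSSC had 1 higher and 5 lower, THY+ minus mSSC was -0.28 with 1 higher and 4 lower, CSP minus mSSC had 1 lower, 6C3+ minus CSP 8 lower, THY+ minus CSP was -0.29 with 1 higher and 7 lower, and 6C3+ minus THY+ -0.053 with 1 higher and 3 lower. Cells under 1000 genes minus fuller cells then gave -0.34 in 6C3+, -0.70 in THY+ and -3.43 in CSP. With pseudocount 0.1, THY+ minus mSSC had 1 higher, CSP minus mSSC 18 lower, 6C3+ minus CSP 4 higher and 6C3+ minus THY+ 40 higher and 1 lower, and cells under 1000 genes minus fuller cells gave -10.49, -8.80 and -10.40 in 6C3+, THY+ and CSP. With pseudocount 10, THY+ minus mSSC had 27 lower, CSP minus mSSC 0 lower, THY+ minus CSP 24 lower and 6C3+ minus THY+ 7 higher, and cells under 1000 genes minus fuller cells gave -4.80, -4.21 and -5.29 in 6C3+, THY+ and CSP.

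The following alternatives were chosen after seeing the data. With the log2 of the median, THY+ minus mSSC was -0.34 with 10 lower, CSP minus mSSC had 0 lower, 6C3+ minus CSP 1 higher, THY+ minus CSP 11 lower, 6C3+ minus THY+ was -0.042 with 3 higher, and THY+ cells under 1000 genes minus fuller cells gave -9.45. With spike-ins under 50% of FPKM, THY+ minus mSSC was -0.21 with 4 higher and 5 lower, THY+ minus CSP -0.027 with 4 higher and 10 lower, and 6C3+ minus THY+ -0.31 with 1 higher and 2 lower. With near-identical rows summed, 6C3+ minus mSSC had 1 higher. Leaving out small RNA rows moved no value beyond these limits. With no filter on low values the background shares changed and the member values did not. For the other alternatives no background was taken. No paired analysis was possible because cell numbers were given in accession order and tie no cells across populations. Read depth is not known, and CSP rests on 11 fuller cells.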
